A study of Mus musculus with 36 samples.

Results

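The genes described here encode the subunits of oxidative phosphorylation in mouse embryonic stem cells (ESCs) that lost leukemia inhibitory factor (LIF) or received retinoic acid (RA). They were chosen by symbol: every gene with a probe set of 1 symbol beginning Ndufa, Ndufb, Ndufc, Ndufs or Ndufv, named Sdha to Sdhd, or beginning Uqcr, Cox4 to Cox8 or Atp5. Of 13674 genes with a probe set of 1 symbol on the 2 chips, 76 matched, and each was read from its brightest probe set. They comprised 30 genes of complex I, 4 of complex II, 7 of complex III, 15 of complex IV, 14 of complex V and 6 named Ndufaf. The last are complex I assembly factors and not subunits, and they were kept apart. Of the 76, 70 passed a brightness filter that kept the brightest 60% of probe sets on each chip, and only these were tested. Ndufa12, Ndufc2, Cox5a, Cox6a2, Cox8a and Atp5j2 were below it.

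RNA from ESCs carrying an Oct4:eGFP reporter was amplified in 2 rounds and hybridised to Affymetrix MG_U74Av2 and MG_U74Bv2 chips, which gave 36 arrays from 18 RNA samples, called libraries here. Cells were sorted by eGFP into high, medium and low fractions. Cultures without LIF were taken at day 1 (n = 4: 2 high, 1 medium, 1 low), day 3 (n = 3: high, medium, low) and day 5 (n = 3: high, medium, low). Cultures without LIF and with 0.1 uM RA were taken at day 1 (n = 3: high, medium, low) and day 2 (n = 2: medium, low). Control cultures kept 1000 U/mL LIF and were harvested 2 days after plating (n = 3: 2 high, 1 medium). All came from 1 reporter line that was grown on embryonic fibroblast feeders and then plated on gelatin, at a density that differed with the length of culture. Nothing in the labels shows whether libraries of a group were grown apart; the p-values describe only how these libraries varied.

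Oxidative phosphorylation is carried out in the inner mitochondrial membrane. Complexes I and II pass electrons from NADH and succinate to ubiquinone, complex III passes them to cytochrome c, complex IV passes them to oxygen, and complex V uses the resulting proton gradient to make ATP. Complexes I, III, IV and V also contain subunits encoded by mitochondrial DNA, whereas the subunits described here are nuclear. ESCs are known for a largely glycolytic metabolism and immature mitochondria, and several complex IV subunits have tissue-specific isoforms.

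The libraries carried 2 features that touch the results. The library labelled −LIF day 1 high replicate 2 went against its label: on chip A its mean correlation was 0.967 with the RA day 1 libraries and 0.943 with the other −LIF day 1 libraries. Its signal for Stra8, an RA-induced gene, was 685.2, against 3.654 to 6.328 in the other −LIF day 1 libraries. Arrays were scanned on 4 days. One day held all −LIF day 3 and RA day 1 libraries, a second held all −LIF day 5 and RA day 2 libraries with 3 of the 4 −LIF day 1 libraries, and the controls lay on the remaining 2 days, 1 of them with −LIF day 1 high replicate 2. The ESC markers Pou5f1, Nanog and Sox2 were bright in the control libraries, at 2388 to 2823, 1730 to 2013 and 3328 to 3713. Median chip A signal lay between 37.73 and 48.66 over the libraries.

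Of 70 oxidative phosphorylation genes tested, 37 passed the test in none of 10 comparisons and 33 in at least 1, and 76 of 700 gene-by-comparison tests passed, 8 of them with a change of more than 1 on the log2 scale. The test was limma on log2 signal with culture and eGFP fraction as terms, and passing means a Benjamini-Hochberg adjusted p under 0.05 over all probe sets of a chip. All comparisons with control share the same 3 control libraries.

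Against control, −LIF day 1 changed 1 gene (0 higher, 1 lower), or 1.43%, against 2.2% of all 9812 genes tested (1.2% higher, 0.999% lower). At −LIF day 3, 5 genes changed (1 higher, 4 lower), or 7.14%, against 12.5% of all genes (6.83% higher, 5.68% lower). At −LIF day 5, 16 changed (3 higher, 13 lower), or 22.9%, against 32.2% of all genes (17% higher, 15.2% lower). Each of these shares, both directions together, was under that of all genes. This did not hold for lower genes alone at −LIF day 5, 13 of 70 against 15.2% of all genes. The median log2 change of the 70 genes was −0.07, −0.15 and −0.15 at the 3 days, and that of all genes was 0.00, 0.04 and 0.00. Counted by whether the libraries of the groups overlapped, 9, 17 and 26 of the 70 genes did not overlap with control at the 3 days, against 13.1%, 33.9% and 48.1% of all genes.

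RA day 1 changed 18 genes against control (12 higher, 6 lower), or 25.7%, against 20.9% of all genes (11% higher, 9.86% lower). RA day 2 changed 9 (1 higher, 8 lower), or 12.9%, against 16.9% (8.62% higher, 8.27% lower). At RA day 1, 28 of the 70 genes did not overlap with control, against 43.1% of all genes, and at RA day 2, 39 did not, against 49.7%. The medians were 0.02 at RA day 1 and −0.21 at RA day 2, beside 0.00 and 0.01 over all genes. RA day 1 exceeded −LIF day 1 in 10 genes and was below it in 0, which is 14.3%, against 6.64% of all genes, of which 3.35% were higher and 3.29% lower. RA day 1 exceeded −LIF day 3 in 6 and was below it in 0, which is 8.57%, against 4.12% of all genes (2.27% higher, 1.84% lower). −LIF day 5 differed from −LIF day 1 in 10 genes (1 higher, 9 lower), or 14.3%, against 31% of all genes (16% higher, 15% lower). RA day 2 differed from −LIF day 1 in 1 gene (0 higher, 1 lower), or 1.43%, against 8.83% (4.48% higher, 4.34% lower). Without overlap were 23 genes between RA day 1 and −LIF day 1, against 19.4% of all genes, 23 between RA day 1 and −LIF day 3, against 33.1%, 18 between −LIF day 5 and −LIF day 1, against 36.5%, and 23 between RA day 2 and −LIF day 1, against 32%.

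**Figure D1:**
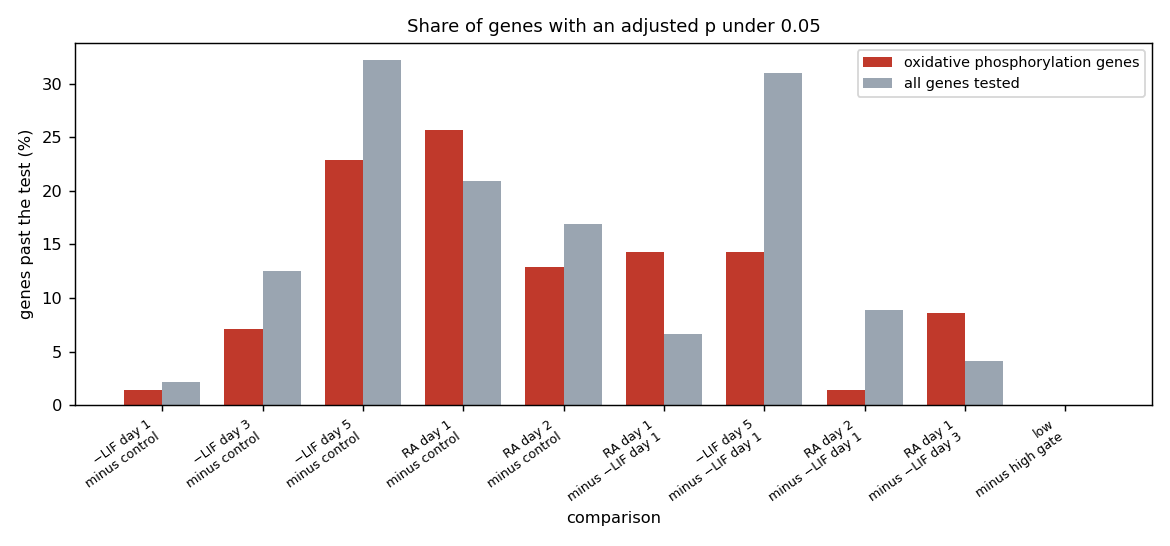
Share of genes past the test (percent, vertical axis) in each of the 10 comparisons, for the 70 oxidative phosphorylation genes (red) and all 9812 genes tested (grey). The red bar is taller in the 3 comparisons of RA day 1, but not against −LIF day 1 without −LIF day 1 high replicate 2 (15.7% against 18.3%) nor against control with scan day as a random block (1.43% against 6.81%), neither of which is drawn. No gene passed between the low and high fractions.

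The promoters of 4 genes are printed here because their RNAs showed the patterns described next. Uqcrh, the hinge protein of complex III, and Atp5l, subunit g of complex V, were highest at RA day 1, whereas Cox6b2 and Cox7a1, the testis and the heart and muscle isoforms of complex IV subunits, moved furthest. Each line gives the 250 bases before the start site, 5′ to 3′ on the gene's strand, from RefSeq's GRCm38.p6 table: Uqcrh at chr4:116075071-116075320 (minus strand), Atp5l at chr9:44920743-44920992 (minus), Cox6b2 at chr7:4753095-4753344 (minus) and Cox7a1 at chr7:30183921-30184170 (plus). Capitals mark matches, on either strand, to the GABP (ETS) motif CCGGAAG and the NRF1 motif GCATGCG.
Uqcrh: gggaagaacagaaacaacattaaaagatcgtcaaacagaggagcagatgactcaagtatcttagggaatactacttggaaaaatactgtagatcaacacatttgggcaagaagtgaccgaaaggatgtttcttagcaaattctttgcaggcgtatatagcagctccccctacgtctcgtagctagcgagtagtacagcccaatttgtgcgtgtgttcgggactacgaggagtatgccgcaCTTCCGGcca
Atp5l: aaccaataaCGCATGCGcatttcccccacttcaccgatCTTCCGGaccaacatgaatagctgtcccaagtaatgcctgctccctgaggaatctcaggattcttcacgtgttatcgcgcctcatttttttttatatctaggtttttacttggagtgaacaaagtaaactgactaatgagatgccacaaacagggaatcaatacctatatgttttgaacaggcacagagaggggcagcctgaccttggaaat
Cox6b2: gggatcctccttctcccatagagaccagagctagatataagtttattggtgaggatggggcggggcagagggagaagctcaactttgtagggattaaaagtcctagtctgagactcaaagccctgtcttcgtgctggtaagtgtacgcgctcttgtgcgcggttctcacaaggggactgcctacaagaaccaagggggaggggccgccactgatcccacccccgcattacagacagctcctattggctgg
Cox7a1: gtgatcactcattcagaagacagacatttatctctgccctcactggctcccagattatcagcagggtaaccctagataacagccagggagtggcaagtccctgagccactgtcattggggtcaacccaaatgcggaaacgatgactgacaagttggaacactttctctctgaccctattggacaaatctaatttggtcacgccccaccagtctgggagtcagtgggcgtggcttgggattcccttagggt
Uqcrh has 1 GABP match whose last base lies 4 bases before its start. Atp5l has 1 GABP match that ends 206 bases before its start and 2 NRF1 matches, which overlap each other on opposite strands and end 235 and 234 bases before it. Cox6b2 and Cox7a1 have no match to either motif or to the YY1 motif ATGGCGG in these bases.

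NRF1, GABP and YY1 are transcription factors known for binding promoters of nuclear genes for the respiratory chain. The table held windows of 300 bases (250 before the start, 50 after) for 63 of the 76 genes. Of these 63, 12 (19%) held the NRF1 motif on either strand, against 4.01% of all 27025 genes in the table. The GABP motif was held by 17 (27%), against 9.93%, and the YY1 motif by 9 (14.3%), against 4.69%. At least 1 of the 3 motifs was held by 30 (47.6%), against 16.6% of all genes. No match of 1 motif overlapped a match of another in these genes' windows. All genes here are those of the table and not only those on the arrays, and a match is a description of letters, not of binding.

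Complex I oxidises NADH through core subunits that carry the flavin and the iron-sulfur clusters, surrounded by accessory subunits. At −LIF day 5, 4 of 28 tested members fell and 1 rose. Ndufv3, an accessory subunit of the NADH-binding module, had signals of 77.15, 76.63 and 68.76 in the high, medium and low fractions of −LIF day 5, against 152.8, 122.1 and 148.7 in the control libraries. The groups did not overlap, and the log2 change was −0.87 (SE 0.17, limma adjusted p = 0.00104). Ndufs7, the core subunit nearest the ubiquinone site, had 3108, 2789 and 2865 at −LIF day 5, against 4524, 4065 and 4643 in control, a change of −0.56 (SE 0.15, limma adjusted p = 0.0137). Ndufs1, the largest core iron-sulfur subunit, had 596.5, 602.7 and 550.7 at −LIF day 5, against 827.3, 739.3 and 899.8 in control, a change of −0.45 (SE 0.12, limma adjusted p = 0.0111). For Ndufs7 and Ndufs1 too, every −LIF day 5 library lay below every control library. Ndufb9, a membrane-arm accessory subunit, had 417.6, 326.8 and 385.2 at −LIF day 5, against 535.1, 529.4 and 439.9 in control, a change of −0.38 (adjusted p = 0.0451). Ndufc1, another membrane-arm subunit, was the member that rose, with 895.5, 882.7 and 777.2 at −LIF day 5, against 694.7, 482.6 and 677.8 in control (0.48, adjusted p = 0.0385). These calls depended on the settings. Over 18 alternatives the call was lost in 12 for Ndufb9, 8 for Ndufc1, 5 for Ndufs7, 4 for Ndufs1 and 1 for Ndufv3, each keeping its direction. With scan day as a fixed block none of the 5 passed (Ndufv3 adjusted p = 0.151, Ndufs7 adjusted p = 0.247).

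The core and accessory subunits of complex I differed in their medians. The 5 core members (Ndufs1, Ndufs3, Ndufs7, Ndufv1 and Ndufv2) had a median change of −0.32 at −LIF day 5 and the 23 accessory members 0.00. At RA day 1 the medians were −0.13 for core and 0.21 for accessory members, and at RA day 2 they were −0.32 and 0.09. These are descriptions without a test. Of the core members, 2 fell at −LIF day 5 and none passed the test at RA day 1 or RA day 2. At RA day 2 the members that passed were accessory: Ndufv3 fell by 0.60 (limma adjusted p = 0.046), and Ndufb5, of the membrane arm, had 2805 and 2651 in the medium and low fractions, against 4266, 3580 and 4021 in control (−0.53, adjusted p = 0.041). At −LIF day 3, Ndufb5 had 2867, 3046 and 2423 in the high, medium and low fractions, also all below control, and changed by −0.50 (adjusted p = 0.0324). Ndufa10, of the membrane arm, was higher there, at 105.7, 102.5 and 80.71, against 65.61, 68.61 and 59.32 in control (0.56, adjusted p = 0.0291). Of 17 alternatives, the calls of Ndufb5 and Ndufa10 at −LIF day 3 were each lost in 9. At RA day 2 the call was lost in 9 for Ndufv3 and 7 for Ndufb5. The other 15 tested members of complex I, read from their brightest probe sets, passed in none of the comparisons. Their largest change in size over the 10 comparisons was 0.18 on the log2 scale for Ndufa5, 0.20 for Ndufs3 and 0.24 for Ndufab1, and 0.63 for Ndufa1. A dimmer probe set of the core member Ndufv2 was lower at −LIF day 5 than in control (−0.44, limma adjusted p = 0.0358). The brighter one changed by −0.07 there (adjusted p = 0.776).

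Complex I assembly depends on factors that are absent from the finished enzyme. Ndufaf5, which in human cells modifies NDUFS7, had signals of 126.7, 100.9 and 128.6 in the high, medium and low fractions of −LIF day 5, against 229.3, 210.6 and 266 in the control libraries. At RA day 2 it had 99.31 and 74.16 in the medium and low fractions, the lowest of all cultures. Its log2 change was −0.96 at −LIF day 5 (limma adjusted p = 0.00231), −0.81 at RA day 1 (adjusted p = 0.0107) and −1.39 at RA day 2 (adjusted p = 0.0019). Ndufaf8, a small protein that in human cells stabilises NDUFAF5, had 730.1, 585.7 and 548.9 at −LIF day 5, against 1739, 1112 and 1101 in control, a change of −0.98 (SE 0.21, limma adjusted p = 0.00384). Ndufaf8, Ndufaf5 and Ndufs7 thus all fell at −LIF day 5. Ndufaf1, part of an early membrane-arm assembly step, had 134.3 and 135.5 in the RA day 2 libraries, against 229.5, 177.8 and 207.7 in control (−0.65, adjusted p = 0.0245). It also fell at RA day 1 (−0.48, limma adjusted p = 0.0425). Of 16 alternatives, the Ndufaf1 call was lost in 10 at RA day 1 and 6 at RA day 2, and that of Ndufaf5 in 4 and 1. At −LIF day 5, of 17 alternatives, the call was lost in 2 for Ndufaf5 and 1 for Ndufaf8. Ndufaf2, Ndufaf3 and Ndufaf4 passed in no comparison.

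Complex II, succinate dehydrogenase, also belongs to the citric acid cycle, and all 4 of its subunits are nuclear. Sdhb, its iron-sulfur subunit, had 1059, 935.5 and 998.3 in the high, medium and low fractions of −LIF day 5, against 1834, 1699 and 1440 in the control libraries, without overlap. The log2 change was −0.66 (SE 0.18, limma adjusted p = 0.019), a call lost in 5 of 18 alternatives, and a second probe set of Sdhb on chip A changed by −0.45 (adjusted p = 0.0179). That second probe set was also lower than control at −LIF day 3 (−0.50, adjusted p = 0.026), RA day 1 (−0.48, adjusted p = 0.0202) and RA day 2 (−0.50, adjusted p = 0.0424). The brighter one did not pass at these (−0.23, 0.03 and −0.38), so the probe sets differed on when Sdhb was lower. Sdha, the flavoprotein, had 106, 101.3 and 98.06 in the high, medium and low fractions of RA day 1, against 142.3, 119.2 and 161.9 in control, and fell by 0.50 on the log2 scale (adjusted p = 0.0233). Sdhd, a membrane anchor, had 569.1, 649.5 and 658.2 at RA day 1 and 595.5 and 607.8 at RA day 2, against 1042, 740 and 816.1 in control. It fell by 0.48 at RA day 1 and by 0.54 at RA day 2 (adjusted p = 0.0401). Of 17 alternatives, the Sdha call was lost in 7 and each Sdhd call in 9. Neither Sdha nor Sdhd passed at −LIF day 5. Sdhc passed in no comparison. All 4 medians of complex II against control from −LIF day 1 to RA day 2 other than that of −LIF day 5 lay between −0.35 and −0.20.

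Complex III members moved in both directions within a culture. Uqcrq, a small subunit known as a ubiquinone-binding protein, had 1596, 1360 and 1379 in the high, medium and low fractions of −LIF day 5, against 3246, 2388 and 2585 in the control libraries. Its log2 change was −0.90 (SE 0.18, limma adjusted p = 0.00135), and it passed in every one of 18 alternatives. Uqcrh had 648.1, 725.1 and 654.9 at −LIF day 5, against 489.3, 387.2 and 521.3 in control, a change of 0.51 (SE 0.14, limma adjusted p = 0.00921). Uqcrq was thus lower and Uqcrh higher in the same 3 libraries, with no overlap with control in either. Uqcr10, another small subunit, had 986.1, 626.5 and 651.6 at −LIF day 5, against 1863, 1317 and 1077 in control, and fell by 0.77 on the log2 scale (adjusted p = 0.0351), a call lost in 7 of 18 alternatives. The large core proteins Uqcrc1 and Uqcrc2, and the small subunits Uqcrb and Uqcr11, passed in none of the 10 comparisons.

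In complex V, Atp5a1 fell at −LIF day 5 and RA day 2. This gene encodes the alpha subunit of the catalytic head. Its signals were 2751, 2818 and 3060 in the high, medium and low fractions of −LIF day 5 and 3098 and 2848 in the medium and low fractions of RA day 2, against 4483, 4137 and 4302 in the control libraries. The changes were −0.58 (SE 0.12, limma adjusted p = 0.00211) and −0.53 (SE 0.14, limma adjusted p = 0.0193). Atp5c1 and Atp5d, of the central stalk, passed in none of the comparisons, and over these 10 the largest change of Atp5c1 was 0.13 on the log2 scale. Nor did the other tested members Atp5j, Atp5k, Atp5md, Atp5o and Atp5pb. This holds for the brightest probe set of each gene. A dimmer probe set of Atp5d was higher at RA day 1 than in control (0.57, limma adjusted p = 0.0143). It was also higher than at −LIF day 1 (0.55, adjusted p = 0.0251) and −LIF day 3 (0.60, adjusted p = 0.0287). Its remaining probe sets did not pass against control (0.21, adjusted p = 0.343, and −0.16, adjusted p = 0.723).

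**Figure D2:**
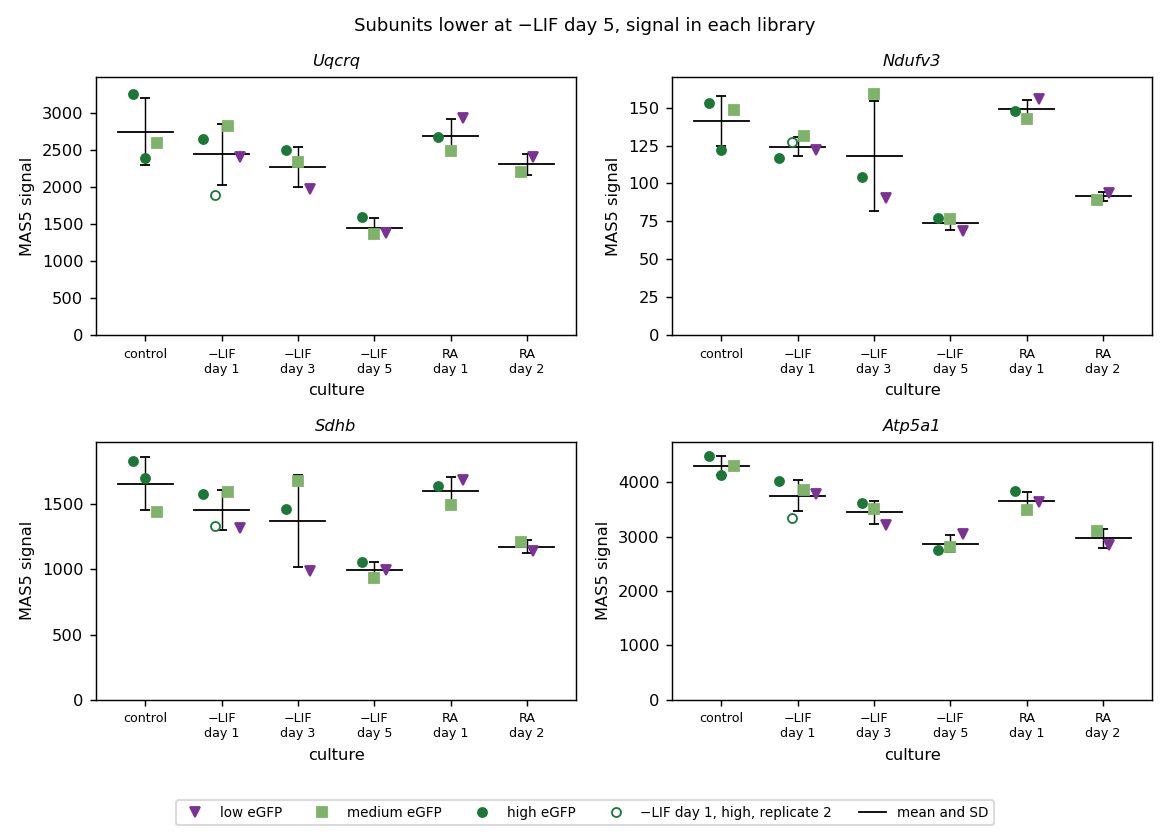
MAS5 signal (vertical axis, linear) of Uqcrq, Ndufv3, Sdhb and Atp5a1 in each of the 18 libraries, by culture, with symbols for the eGFP fraction and a line and bar for mean and SD. In all 4 panels the 3 −LIF day 5 libraries lie below the 3 control libraries.

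The changes from −LIF day 1 to −LIF day 5 could also be read within 1 scan day. Within it, −LIF day 5 and the 3 −LIF day 1 libraries scanned with it differed in 11 genes (1 higher, 10 lower), beside 33.7% of all genes. Uqcrq changed by −0.86 within that day (limma adjusted p = 0.00298), Ndufv3 by −0.70 (adjusted p = 0.00528), Atp5a1 by −0.44 (adjusted p = 0.0334) and Sdhb by −0.58 (adjusted p = 0.0341). The second probe set of Sdhb differed by −0.07 between these cultures over all scan days (adjusted p = 0.728), and the call for Sdhb there was lost in 11 of 20 alternatives. Without −LIF day 1 high replicate 2 the same comparison over all scan days had 13 genes past the test. RNA length differed between these cultures too, also among the libraries of that 1 scan day. The log2 ratio of 3′ to 5′ Actb signal on chip A, a measure of it, was 0.8269 to 0.9368 at −LIF day 5. At −LIF day 1 it was 0.9772 to 1.145, without overlap, and its part in these changes was not tested. Cox4i1, the ubiquitous isoform of the largest nuclear subunit of complex IV, had 852.7, 759.3 and 814.2 in the high, medium and low fractions of −LIF day 5, against 1198 and 1188 in the high, 1276 in the medium and 1263 in the low fractions of −LIF day 1. It fell by 0.60 on the log2 scale (adjusted p = 0.0167), a call lost in 6 of 20 alternatives. The probe set used can match several related transcripts, and did not pass at −LIF day 5 against control (−0.36, adjusted p = 0.161). A dimmer probe set of Cox4i1 passed against −LIF day 1 (−0.41, limma adjusted p = 0.03155) and against control (−0.45, adjusted p = 0.02861). The dimmest one passed against neither (0.15, adjusted p = 0.568, and 0.07, adjusted p = 0.803).

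At RA day 1, 10 genes of complexes I, III, IV and V were higher than at −LIF day 1. Uqcrh had 841.8, 812.5 and 884.3 in the high, medium and low fractions of RA day 1, against 499.6 and 556 in the 2 high, 660.3 in the medium and 624.2 in the low fractions of −LIF day 1. Atp5l had 811.5, 758.4 and 828.8 at RA day 1, against 400.6, 381.2, 531.7 and 356.6 in the same order at −LIF day 1. For both genes the lowest RA day 1 library lay above every library of the other 5 cultures. The log2 difference was 0.52 for Uqcrh (SE 0.12, limma adjusted p = 0.0232) and 0.95 for Atp5l (SE 0.18, limma adjusted p = 0.00928). Of 18 alternatives, the call was lost in 9 for Uqcrh and 3 for Atp5l. A second, dimmer probe set of Atp5l differed by 0.55 and did not pass (adjusted p = 0.114).

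Ndufa6, an accessory subunit of complex I, had 253.7, 246.9 and 248.2 in the high, medium and low fractions of RA day 1, against 152.3, 144.8, 138.4 and 136.4 in the −LIF day 1 libraries. Its difference of 0.81 (SE 0.14) had a limma adjusted p of 0.00759. Cox7b, a small subunit of complex IV, had 1484, 1185 and 1503 at RA day 1, against 965.9, 831.8, 858.6 and 713.8 at −LIF day 1, a difference of 0.74 (SE 0.14, limma adjusted p = 0.00928). In both genes all RA day 1 libraries lay above all −LIF day 1 libraries. Atp5mpl, a small membrane subunit of complex V, had 1163, 1163 and 1221 at RA day 1, against 582.5, 593.4, 854.8 and 648.8 at −LIF day 1, and differed by 0.83 (adjusted p = 0.00928). Atp5e, the epsilon subunit, had 236.3, 208.3 and 234.4, against 135.6, 175.7, 185.5 and 137.4, and differed by 0.53 (adjusted p = 0.0331). These 2 showed no overlap either. Calls were lost, of 18 alternatives, in 9 for Atp5e, 3 for Atp5mpl, 3 for Cox7b and 2 for Ndufa6.

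The remaining 4 of the 10 belong to complex I. Ndufa2, an accessory subunit with a thioredoxin-like fold, had 969.1, 870.7 and 1080 at RA day 1, against 614.5, 677.1, 689.8 and 576.4 at −LIF day 1 (0.60, limma adjusted p = 0.0189). Ndufa13, an accessory subunit also studied as a cell death regulator, had 440.3, 419.6 and 518, against 299.2, 313.2, 358.6 and 296.4 (0.51, adjusted p = 0.0266). In both, the RA day 1 libraries lay above all −LIF day 1 libraries. Ndufb10, of the membrane arm, had 497.6, 451.6 and 546.2, against 318.6, 284.6, 330.6 and 259.2 (0.77, adjusted p = 0.0448). Over 18 alternatives, calls were lost in 11 for Ndufb10, 9 for Ndufa13 and 5 for Ndufa2. Ndufs4, with 25.4, 24.97 and 31.1, against 27.17, 12.59, 12.25 and 10.94, was the one whose groups overlapped (0.76, adjusted p = 0.0412). Its mean log2 signal of 4.81 lay just inside the filter's limit of 4.80 and that of −LIF day 1, 4.23, below it, so the size of its difference is uncertain, and the call was lost in 11 of 17 alternatives.

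**Figure D3:**
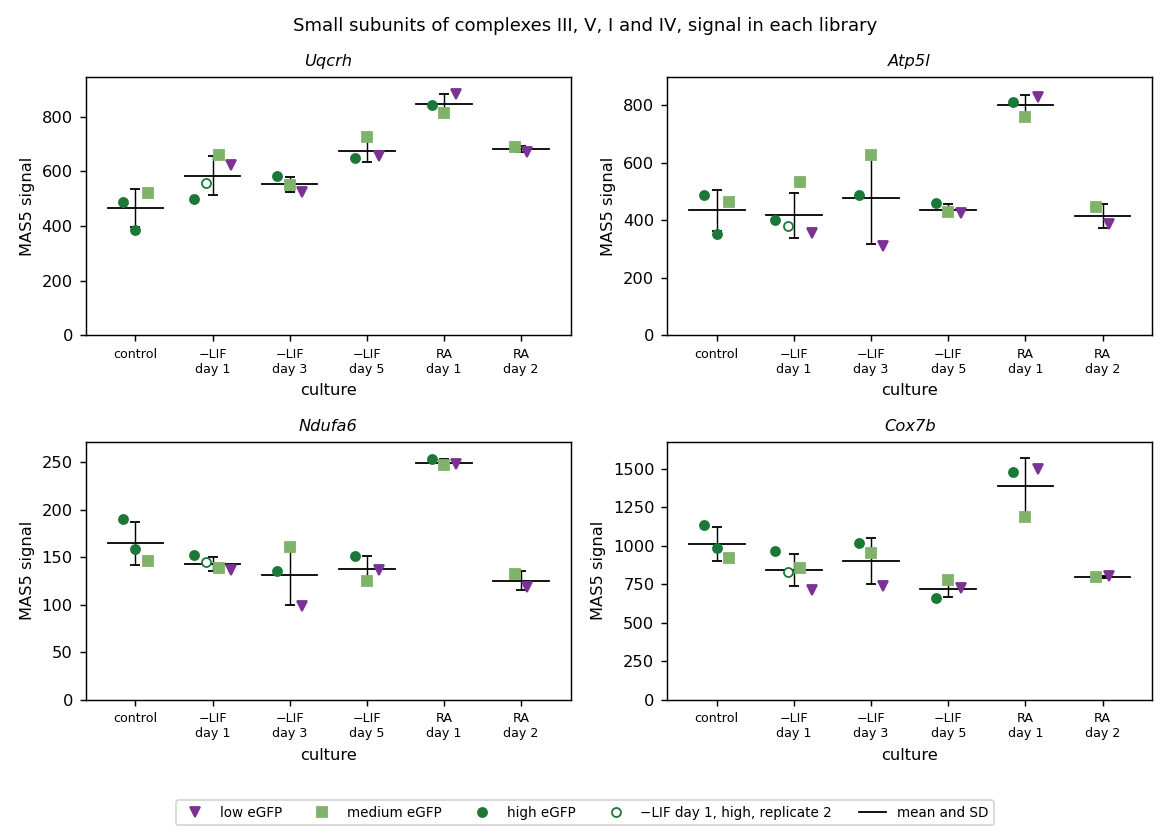
MAS5 signal (vertical axis, linear) of Uqcrh, Atp5l, Ndufa6 and Cox7b in each of the 18 libraries, by culture, with symbols for the eGFP fraction and a line and bar for mean and SD. The 3 RA day 1 libraries lie above all libraries of the other cultures in each panel, and the 2 RA day 2 libraries do not.

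At RA day 1 against control, the 12 higher genes were Ndufa2, Ndufa6, Ndufa13, Ndufb10, Ndufb11, Ndufc1, Uqcrh, Cox5b, Cox7b, Atp5e, Atp5l and Atp5mpl, and the 6 lower were Sdha, Sdhd, Cox6b2, Cox7a1, Ndufaf1 and Ndufaf5. Of those 12, Uqcrh alone passed as higher at RA day 2, with 688.7 and 672.9, against 489.3, 387.2 and 521.3 in control (0.49, limma adjusted p = 0.0468), a call lost in 9 of 17 alternatives. Both RA day 2 libraries also lay above every control library for Atp5mpl (964.4 and 843, against at most 769), Ndufa2 (718.2 and 750.9, against at most 670.3), Ndufc1 (816.5 and 731.2, against at most 694.7) and Atp5e (176 and 166.3, against at most 146.1), which did not pass. Atp5l at RA day 2 was 444.9 and 385.9, within the control range of 351.8 to 486.8.

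Scan day and RNA measures moved with these results. No −LIF day 1 or control library was scanned with RA day 1, so for those comparisons scan day and RA cannot be told apart. With scan day as a random block, 0 of the 10 genes above passed against −LIF day 1, beside 0.0102% of all genes, and 1 gene (1.43%), Uqcrh, passed against control (adjusted p = 0.0181), beside 6.81% of all genes. Leaving out −LIF day 1 high replicate 2 alone gave 11 genes against −LIF day 1, with the same 10 higher and Atp5j lower by 0.64 on the log2 scale (adjusted p = 0.00468). Those 11 are 15.7% of the 70, against 18.3% of all genes without that library (10.1% higher), so the share above that of all genes was lost there, and under the block against control. With both changes, 6 genes (8.57%) passed against −LIF day 1 and 11 (15.7%) against control, beside 9.4% and 16.4% of all genes. Against −LIF day 3, which shared the scan day with RA day 1, Ndufa6 was higher by 0.93 (SE 0.15, limma adjusted p = 0.00331), Atp5l by 0.80, Ndufc1 by 0.75, Ndufb11 by 0.68, Cox7b by 0.62 and Uqcrh by 0.61. Fitted on that scan day alone, 2 of the 6 passed, Ndufa6 (adjusted p = 0.0481) and Ndufc1 (adjusted p = 0.0393), beside 1.49% of all genes. The log2 ratio of 3′ to 5′ Gapdh signal on chip A, a measure of RNA length, was 1.106 to 1.451 at RA day 1. It was 0.684 to 0.996 at −LIF day 1, 0.864 to 1.081 in control and 0.651 to 0.788 at −LIF day 3. On chip B it was 1.173 to 1.354 at RA day 1 and 0.498 to 0.785 at −LIF day 3. RA day 1 and −LIF day 3, which shared the scan day, thus did not overlap in it on either chip. The part of RNA length in the result was not tested. Markers moved too: between RA day 1 and −LIF day 1, 6 of 19 pluripotency markers were lower and 3 of 8 neural progenitor markers higher, with summed neural signals of 2476 to 3129 at RA day 1 and 1889 to 2746 at −LIF day 1. Their part was not tested.

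**Figure D4:**
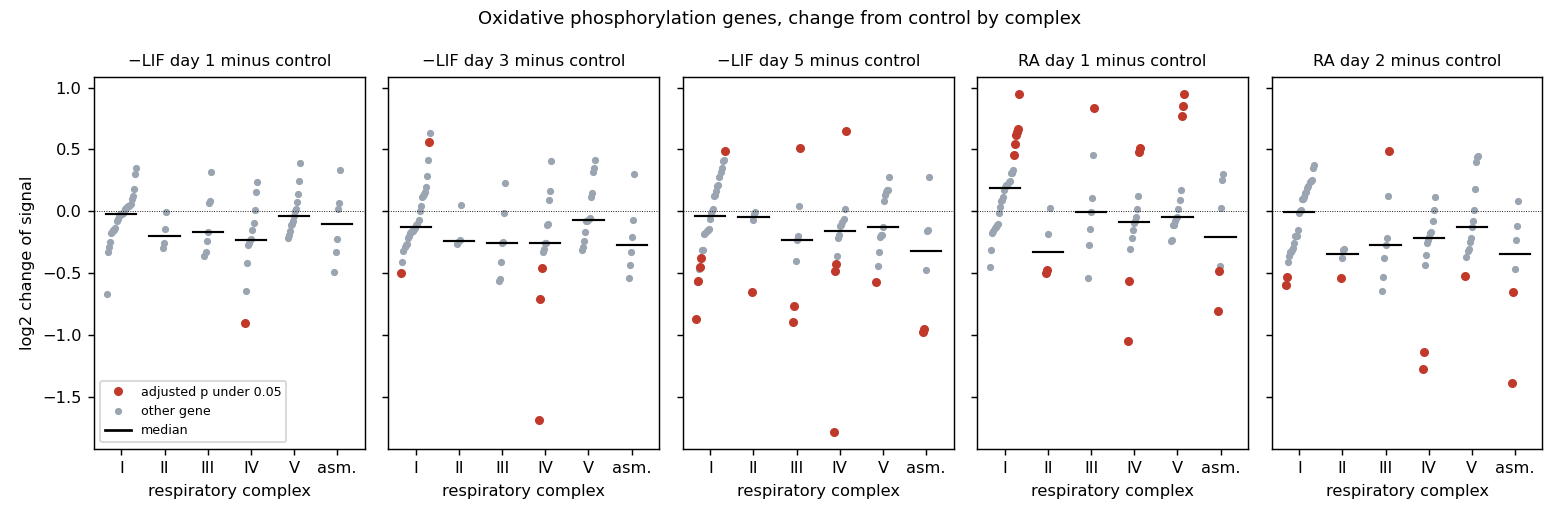
Log2 change of signal from control (vertical axis) of the 70 tested genes, by complex (asm., assembly factors), for −LIF days 1, 3 and 5 and RA days 1 and 2. Red points passed the test, grey points did not, and lines are medians. Complex I has 6 red points above 0 at RA day 1 and 0 above 0 at RA day 2.

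Complex IV held the widest changes, in tissue isoforms. Cox7a1, the heart and muscle isoform of a small subunit, had 18.63, 17.49 and 18.49 in the high, medium and low fractions of −LIF day 5, against 98.94, 63.75 and 68.5 in the control libraries. It had 18.22, 30.79 and 13.29 at −LIF day 3, 30.39, 40.32 and 28.85 at RA day 1, and 29.78 and 25.41 at RA day 2. No library of these 4 cultures reached the lowest control. The change from control was −1.79 at −LIF day 5 (SE 0.20, limma adjusted p = 1.85e-05), −1.69 at −LIF day 3 (adjusted p = 0.000221), −1.05 at RA day 1 (adjusted p = 0.00264) and −1.28 at RA day 2 (adjusted p = 0.00237). Its level was low: mean log2 signals of 4.57 at −LIF day 3 and 4.47 at −LIF day 5 lay under the filter's limit of 4.80 on chip A, so the size of these changes is uncertain. Over the alternatives it was −1.93 to −1.31 at day 3 and −1.96 to −1.38 at day 5.

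The related isoforms gave other values. Cox7a2, the ubiquitous one, had 1900, 1441 and 1487 in the high, medium and low fractions of −LIF day 5, against 1961, 1629 and 1653 in control, a change of −0.07 (SE 0.14, adjusted p = 0.75). Cox7a2l, which helps join complexes III and IV, fell at −LIF day 3 by 0.46 on the log2 scale (limma adjusted p = 0.0254). It averaged 566.5 ± 8.184 at −LIF day 3 and 783.4 ± 15.25 in control (SD, n = 3 each), and the call was lost in 9 of 17 alternatives. Of 12 muscle and heart markers, 8 were tested, and 1 rose and 1 fell at −LIF day 5. Their summed signal was 626.1 to 824.8 at −LIF day 5 and 502.1 to 609.8 in control.

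Cox6b2, the testis isoform of a subunit that faces the intermembrane space, moved down and then up. Its signals were 489.4, 400.6 and 391.1 in the control libraries, 207 and 268.7 in the high, 211.4 in the medium and 183.8 in the low fractions of −LIF day 1, 266.8, 280.4 and 187.6 at −LIF day 3, and 664.2, 648.5 and 570.5 at −LIF day 5. The −LIF day 1 and day 3 libraries all lay below the controls and the −LIF day 5 libraries all above them. The change from control was −0.91 at −LIF day 1 (SE 0.15, limma adjusted p = 0.00614), −0.71 at day 3 (adjusted p = 0.00987) and 0.65 at day 5 (adjusted p = 0.00584). With scan day as a random block the day 1 and day 3 calls were lost (−0.79, adjusted p = 0.0558, and −0.66, adjusted p = 0.158), and day 5 still passed (0.79, adjusted p = 0.0102). With a fixed block day 1 was at −0.57 (adjusted p = 0.235). −LIF day 5 exceeded −LIF day 1 by 1.56 (SE 0.15, limma adjusted p = 2.55e-06), and by 1.63 within 1 scan day (adjusted p = 0.000163). At RA day 2 it had 162.9 and 175.7, a change of −1.14 from control (adjusted p = 0.00114). A second, dimmer probe set of Cox6b2 rose from −LIF day 1 to day 5 by 1.86 (adjusted p = 0.00147) and changed by 0.14 at RA day 1 against control, where the brighter one fell by 0.57. The probe set used is of a kind that can match several transcripts of a family. Cox6b1, the somatic isoform, had 62.47, 64.28 and 66.98 at −LIF day 5, against 54.37, 70.23 and 77.84 in control, and passed in none of the comparisons.

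**Figure D5:**
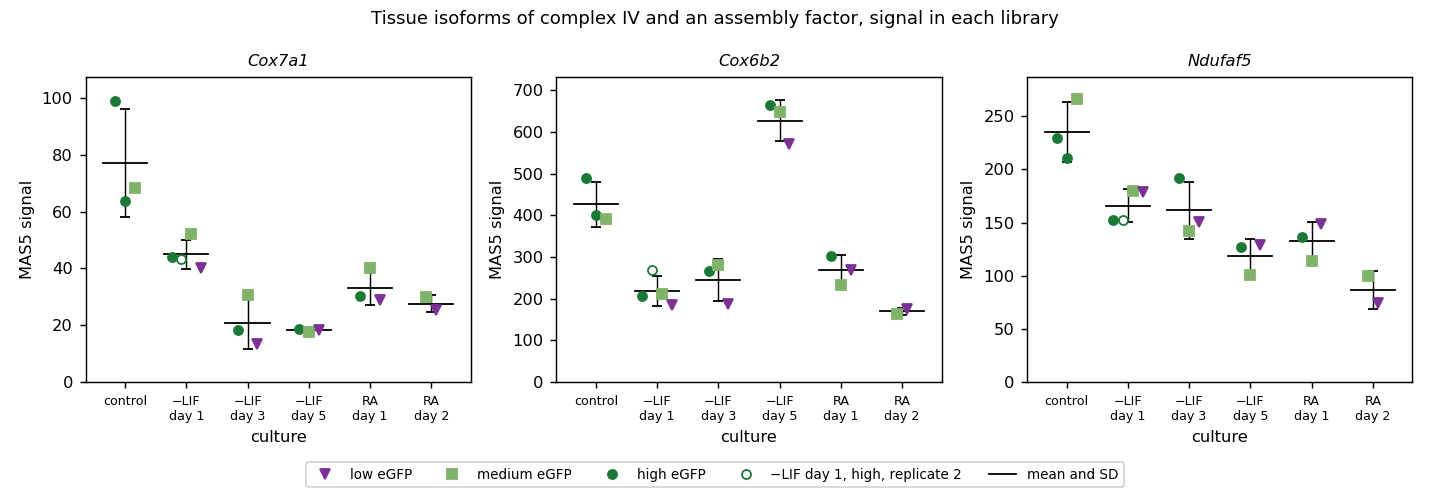
MAS5 signal (vertical axis, linear) of Cox7a1, Cox6b2 and Ndufaf5 in each of the 18 libraries, by culture, with symbols for the eGFP fraction and a line and bar for mean and SD. Cox7a1 and Ndufaf5 are highest in the 3 control libraries, and Cox6b2 is highest in the 3 −LIF day 5 libraries.

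Other isoform sets showed no change past the test. Cox6a1, the ubiquitous isoform, had 2668, 2319 and 2118 in the high, medium and low fractions of −LIF day 5, against 2773, 2895 and 2646 in control (−0.22, adjusted p = 0.27). Its heart and muscle counterpart Cox6a2 was below the filter, with 10.31, 9.667 and 12.35, against 8.329, 10.48 and 9.038. Cox8b, the heart and muscle isoform of another small subunit, had 67.77, 79.08 and 68.82 at −LIF day 5, against 72.13, 99.53 and 72.35 in control, and Cox8a was below the filter. Neither Cox8b nor Cox8c, the testis isoform, passed in any of the comparisons. Atp5g1 and Atp5g2, which encode the same mature ring subunit of complex V, did not pass either. Atp5g1 had 47.5, 46.84 and 46.83 at −LIF day 5, against 57.55, 52.02 and 55.82 in control, and Atp5g2 had 706.5, 796.1 and 728.3, against 1006, 690.9 and 929.4. In the rest of complex IV, Cox6c, a small nuclear subunit, had 2552, 2877 and 3071 at −LIF day 5, against 4398, 3924 and 3788 in control, and fell by 0.48 on the log2 scale (limma adjusted p = 0.0154). Cox7b had 661.6, 775.7 and 728.7 there, against 1136, 985.6 and 919.4 in control, and fell by 0.43 (adjusted p = 0.047). Cox5b, a zinc-binding subunit, had 1233, 1129 and 1280 at RA day 1, against 1032, 772.2 and 903.4 in control, and rose by 0.48 (adjusted p = 0.0323). These calls were lost in 6 of 18 alternatives for Cox6c, 12 of 18 for Cox7b and 8 of 17 for Cox5b.

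No member passed the test between the eGFP fractions, which follow the Oct4 reporter. Between the low and high fractions, with culture as a term, 0 of 70 genes passed limma's test and 2 had an unadjusted p under 0.05. Over all 9812 genes 0 (0%) passed and 500 had such a p, and 0 of the 70 genes were without overlap between the fractions, against 0.122% of all genes. The median difference was −0.08 on the log2 scale, with 59 of 70 genes below 0, including all 12 of complex IV, beside −0.01 and 5132 of 9812 over all genes. With 1 library left out at a time this median ranged from −0.108 to −0.0418, the latter without −LIF day 3 low. The typical 95% interval of a gene's difference, without adjustment for the number of tests, reached 0.258 to each side. Larger differences did not pass either: the 70 ranged from −0.66, for an assembly factor, to 0.29, for a complex III gene. The lack of calls thus sets no limit of 0.258 on the differences between fractions. Control cultures had no low fraction.

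The rest of the pathway is given by lists of genes, to be read against the 32.2% of all genes that passed at −LIF day 5 (17% higher, 15.2% lower). The share that passed was 40% of electron carriers, 31.8% of citric acid cycle genes, 28.6% of mitochondrial ribosomal genes, 27.8% of glycolysis genes, 26.1% of import genes, 20% of biogenesis regulators, and 11.1% each of assembly factors and cytosolic ribosomal genes, so electron carriers alone exceeded the share of all genes. Among 20 tested electron carriers and nucleotide exchange proteins, 0 rose and 8 fell at −LIF day 5 (median −0.36), among them Cyct, the testis cytochrome c (−2.31, limma adjusted p = 0.000243), Dhodh, which feeds electrons to ubiquinone from pyrimidine synthesis (−1.18), Etfb, an electron transfer flavoprotein (−0.86), and Gpd2, of the glycerol phosphate shuttle (−0.93). Among 22 citric acid cycle and pyruvate dehydrogenase genes, 1 rose and 6 fell (median −0.14), with Pdk1, a kinase that inhibits pyruvate dehydrogenase, at −1.62 and Pdhb, a subunit of that enzyme, at −1.24. Among 70 mitochondrial ribosomal protein genes, 3 rose and 17 fell (median −0.33), with Mrps5 at −1.18 and Mrps12 at −0.95. Of 23 import genes, 2 rose and 4 fell, with Hspa9, the matrix chaperone of the import motor, at −0.81. Of 27 assembly factors, 5 of them already counted above, 0 rose and 3 fell, with Sdhaf1 at −0.60.

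Glycolysis moved gene by gene: of 18 genes, 2 rose and 3 fell at −LIF day 5 (median −0.05). Pfkp, the platelet phosphofructokinase, changed by −3.02 (limma adjusted p = 2.5e-06) and Hk2, hexokinase 2, by −1.81, whereas Slc2a3, a glucose transporter, rose by 1.09. Of 20 regulators of mitochondrial biogenesis, 1 rose and 3 fell. Gabpa, the DNA-binding subunit of GABP, changed by −1.20 (adjusted p = 5.45e-05) and Gabpb1, its partner, by 0.78 (adjusted p = 0.00327), while Nrf1 changed by −0.26 (adjusted p = 0.253) and Yy1 by 0.21 (adjusted p = 0.436). Of 27 cytosolic ribosomal protein genes 1 rose and 2 fell.

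At RA day 1 against −LIF day 1, where 6.64% of all genes passed, the other lists lay on both sides of that share. Cytosolic ribosomal proteins had 2 higher and 0 lower of 27 (7.41%, median 0.06), mitochondrial ribosomal proteins 3 higher and 2 lower of 70 (7.14%, median −0.01), and assembly factors 1 higher and 0 lower of 27 (3.7%, median −0.17). Electron carriers had 1 higher and 0 lower of 20 (5%), import genes 0 higher and 1 lower of 23 (4.35%), glycolysis 1 higher and 1 lower of 18 (11.1%) and biogenesis regulators 2 higher and 2 lower of 20 (20%). Citric acid cycle and pyruvate dehydrogenase genes had 0 higher and 4 lower of 22 (18.2%, median −0.07). The last were Idh2 (−0.76, limma adjusted p = 0.00808), Cs, citrate synthase (−0.53), Pdk1 (−0.73) and Idh3g (−0.43).

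Markers of other cells moved with −LIF day 5. Of 10 tested fibroblast feeder markers, 8 rose and 0 fell, and their summed signal was 3193 to 3311, against 841.3 to 968.2 in control. All 5 tested primitive streak and mesoderm markers rose, with a summed signal of 2068 to 2601, against 130.7 to 180.3 in control. Of 19 pluripotency markers 15 fell. Of 14 extraembryonic endoderm markers 7 rose and 1 fell, and of 8 neural progenitor markers 3 rose and 2 fell. A measure of RNA length moved as well. The log2 ratio of 3′ to 5′ Actb signal on chip A was 0.8269 to 0.9368 at −LIF day 5 and 0.7885 to 0.8634 at RA day 2. In control it was 1.101 to 1.342, without overlap, and its part in the changes was not tested. In bulk samples fewer cells of a type and less RNA per cell cannot be told apart, and the part of these markers in the changes of Uqcrq, Ndufv3 and the others was not tested.

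Over the 18 libraries the median Pearson correlation between pairs of members was 0.189, and members correlated with their mean profile at −0.337 to 0.871, with 6 below 0. The 10 other genes most like that mean profile were Eif3k (r = 0.932), Mrpl52 (0.875), Coa6 (0.861), Lamtor2 (0.861), Mrps10 (0.853), Dtymk (0.846), Urod (0.845), Mrpl51 (0.832), Chchd5 (0.822) and Psma2 (0.819). The points are libraries that share cultures and scan days. The median deviation of the members in a library was lowest in −LIF day 3 low, at −0.26, and highest in control high 1, at 0.20, beside −0.02 to 0.04 for all genes.

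Some values rest on probe sets with limits. For 14 members a further probe set passed the filter, 17 probe sets in all. Of 13 gene-by-comparison calls that such a probe set could check, 11 had the same sign and 4 passed in the same direction. Of the 76 members, 58 were read from probe sets without a warning suffix, and 12 from probe sets that can match several related transcripts. A further 13 probe sets named several genes of which 1 matched the symbols, and these were not counted as members.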

How the data were processed

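The authors deposited MAS5 signal intensities of 36 arrays, per the submitters' processing notes; their trimmed mean (2% off each end) was 150.09 to 150.1 on chip A and 150.04 on every chip B array. The genes and lists were chosen with earlier results of these data known. From the deposited intensities, log2(signal + 4) on chip A and log2(signal + 7) on chip B were computed, the brightest 60% of probe sets by mean were kept (7453 and 7447), and culture plus eGFP fraction was fitted over all 18 libraries with limma 3.58.1 in R 4.3.3, separately for each chip. The Benjamini-Hochberg adjusted p was taken over a chip's probe sets, with a threshold of 0.05. Fold changes on this scale understate the change of dim probe sets. A gene was read from its brightest probe set, and probe sets naming several genes were left out. The number of arrays limits the precision. All 76 symbols equalled RefSeq's (GRCm38.p6). Library values are given, per complex, for up to 3 members with the smallest adjusted p in the comparisons named, and for isoform sets; up to 4 genes of a list are named by smallest p. In the cytosolic ribosome list, ribosomal S6 kinases were dropped. Promoter windows came from RefSeq. The fit was tested on simulated data. Alternatives were quantile normalization, other pseudocounts and filters, scan day as a block or held fixed, no fraction term, only the compared cultures, other probe set rules, no assembly factors, and each library left out. Leaving out −LIF day 1 high replicate 2 together with a scan day block was added after the data were seen. Scanner run records were used for scan days only.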

Additional observations from a re-analysis of the deposited data

Results flagged for a closer look

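In the 4 −LIF day 1 libraries, 1 library stood apart from the rest for 3 of the 70 genes tested, by Dixon's test at the 95% level. Chance alone sets about 1 in 20 such groups apart. Ndufa7, an accessory subunit of complex I, had a log2 signal of 11.04 in the medium fraction, against 10.56 to 10.63 in the other 3. Ndufb6, also accessory, had 8.7 in high replicate 2, the library that resembles RA day 1, against 9.05 to 9.121 in the others. Ndufs4, an accessory subunit needed for a stable complex, had 4.962 in high replicate 1, against 3.902 to 4.052 in the others. Ndufs4 is 1 of the 10 genes higher at RA day 1 than at −LIF day 1.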

How the results depend on the processing

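Of the 76 tests that passed, 0 changed direction under any alternative. Counts of genes past the test moved by over 1.5 times as follows. With scan day as a random block, −LIF day 1, 3 and 5 against control had 0, 1 and 10 genes, RA day 1 against control 1, RA day 1 against −LIF day 1 0, RA day 2 against −LIF day 1 2, and RA day 1 against −LIF day 3 10. With −LIF day 1 high replicate 2 also left out, −LIF day 3, RA day 1 and RA day 2 against control had 2, 11 and 5, and RA day 1 and RA day 2 against −LIF day 1 had 6 and 5. As a fixed block, −LIF day 1 and day 5 against control had 0 and 8, and RA day 2 against −LIF day 1 had 5; RA day 1 against control and against −LIF day 1, and −LIF day 3 against control, could not be fitted. Within 1 scan day, RA day 1 against −LIF day 3 had 2. With only the compared cultures fitted, where fewer samples estimate the spread, −LIF day 1, 3 and 5 and RA days 1 and 2 against control had 0, 1, 6, 1 and 0, RA day 1, −LIF day 5 and RA day 2 against −LIF day 1 had 0, 5 and 0, and RA day 1 against −LIF day 3 had 2. Without the brightness filter, −LIF day 3 and RA day 2 against control had 2 and 4, RA day 1 and RA day 2 against −LIF day 1 had 5 and 0, and RA day 1 against −LIF day 3 had 3. Without the fraction term, −LIF day 1 and RA day 2 against control had 2 and 14. With the brightest 40%, −LIF day 1 against control had 2. Without assembly factors, RA day 2 against −LIF day 1 had 0. The cause of each shift other than fewer samples was not tested.

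Leaving out 1 library at a time gave 1 to 2 genes for −LIF day 1, 2 to 9 for −LIF day 3, 10 to 16 for −LIF day 5, 7 to 16 for RA day 1 and 3 to 13 for RA day 2 against control. It gave 1 to 11 for RA day 1, 5 to 13 for −LIF day 5 and 0 to 4 for RA day 2 against −LIF day 1, and 1 to 6 for RA day 1 against −LIF day 3. The member median ranged from 0.0142 to 0.158 for RA day 1 against −LIF day 1 and from 0.0519 to 0.215 for RA day 1 against −LIF day 3. The count for RA day 1 against −LIF day 1 was lowest, at 1, without RA day 1 low, and that against −LIF day 3 was lowest, at 1, without −LIF day 3 low. The replicate numbers shared by the high fractions of −LIF day 1 and control do not show pairing, with 2 pairs and correlations of deviations of 0.173 (chip A) and 0.115 (chip B). With the replicate block, 0 members passed, as without it, and 2 had an unadjusted p under 0.05 in each limma fit.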

Other observations

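Some genes known for expression in the testis moved in opposite directions at −LIF day 5. Against control, Rpl39l, a paralog of a cytosolic ribosomal protein, changed by −2.84 on the log2 scale (limma adjusted p = 2.88e-06) and Rps4l, another, by −1.30 (adjusted p = 0.000171), while Cox6b2 rose. Probe sets of near-identical copies can share signal. Some probe sets named several genes. A probe set for Cox7c, a small complex IV subunit, and a pseudogene-like partner was lower than control at RA day 2 (−0.82, adjusted p = 0.00419). It was also lower at −LIF day 3 (−0.47, adjusted p = 0.0425). Another probe set for the same genes passed at neither (−0.04, adjusted p = 0.887, and −0.26, adjusted p = 0.198). The probe set for Ndufa11 and Ndufa11b was higher at RA day 1 than in control (0.79, adjusted p = 0.0308). A probe set for Ndufb4 and its copies was lower there (−0.65, adjusted p = 0.0302), and another did not pass (−0.13, adjusted p = 0.724).

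Signal for Cyp26a1, the enzyme that degrades RA, was 1622, 1667 and 1438 in the high, medium and low fractions of −LIF day 5, where no RA was added, against 10.34, 21.07 and 12.71 in the control libraries.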
